A study of Mus musculus with 5 samples.

Results

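The keratin family was taken from a peak table of CUT&RUN, an assay in which a nuclease held by an antibody releases the DNA around the bound mark. Members were all peaks assigned to a gene symbol of Krt followed by digits with at least 1 CPM (the reads of a peak scaled to the library's total in peaks) in at least 2 of the 4 H3K4 libraries. All 15 peaks with such a symbol met this level, so the filter removed 0, among 58072 of 85275 peaks in all that met it. The weakest were the Krt40 peak, which met it through the control libraries alone and so had to lie higher there, and the weakest Krt78 peak. The 15 peaks belonged to 10 genes, out of 53 protein-coding Krt symbols in RefSeq. By a grouping taken from textbook expression, 6 peaks lay at the simple epithelial keratins (Krt7, Krt8, Krt18 and Krt19), 8 at skin and hair keratins (Krt1, Krt10, Krt14, Krt78 and Krt40), and 1 at Krt222, a keratin-like gene outside both groups.

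Keratins are the intermediate filament proteins of epithelia. A type I keratin pairs with a type II keratin, and the pair assembles into filaments that are anchored at desmosomes. Krt8 (type II) and Krt18 (type I) form the pair of simple, single-layered epithelia, Krt7 (type II) and Krt19 (type I) are added in ducts and in mesothelium, and Krt5, Krt14, Krt1 and Krt10 belong to the layers of the epidermis, with further keratins in hair. Cardiomyocytes use desmin instead, and in the heart simple keratins are known from the mesothelium-like epicardium. Methylation of lysine 4 on histone H3 (H3K4) marks active promoters and enhancers, and Kdm5b encodes an enzyme that removes it.

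The cells were labelled neonatal CM and came from the hearts of P1 mice, and they were treated for 72 h. The control group (Control-ShRNA-IL) and the knockdown group (Kdm5b-ShRNA-IL, a short hairpin RNA against Kdm5b) had 2 H3K4 libraries each, and 1 negative control library came from cells given Control-ShRNA-IL. The sources used here do not give the mouse strain, any pooling of animals, the purity of the cells, the methylation state recognised or the reagent of the negative control. The cell type label also carries another number in each sample, from P1 to P5. If that number were an age, it could not be told apart from the treatment. Libraries are named 3 and 4 after their columns. Their reads in peaks ranged from 18710132 to 31068085, against 3784381 in the negative control. The labels do not say whether the 2 libraries of a group are separate cultures. The p-values therefore describe library-to-library spread, part or all of which can be technical. In the reported fit this spread was taken from peaks of like height, so a p-value does not measure how well the libraries agree at a single peak. H3K4 signal gives no check of how far Kdm5b itself was lowered. Of 10 cardiomyocyte marker genes 9 were measured, with summed levels of 1607 and 1596 CPM in control, 1510 and 1507 CPM in knockdown and 1324 CPM in the negative control libraries, and 6 of the 9 stood at or above the negative control. The excess of these sums over the negative control rested on Gata4. It held 583 and 569 CPM in control, 579 and 596 CPM in knockdown and 278 CPM in the negative control libraries. Its log2 ratio of control to negative control was 1.05, and the next highest of the list was 0.25, at Pln. Only 2 of 6 blood cell markers were measured, at 4.44 and 4.05 CPM in sum in the control libraries.

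The promoter sequences of the keratins the comparison turns on are shown because they differ in CpG content, a feature that often goes with H3K4 methylation. RefSeq (build GRCm38.p6) gave a promoter of 250 bases before to 50 after a start site for 7 of the 10 genes. The sequences of Krt7, Krt8, Krt18 and Krt10 are printed 5′ to 3′ along the gene, with CG dinucleotides in capitals. Krt7 lies at chr15:101412153-101412452 on the plus strand, Krt8 at chr15:102004293-102004592 on the minus strand, Krt18 at chr15:102027966-102028265 on the plus strand and Krt10 at chr11:99389315-99389614 on the minus strand. The peak table uses GRCm39, so these positions are not comparable with those of the peaks, and whether a peak covers its promoter was not determined.
Krt7: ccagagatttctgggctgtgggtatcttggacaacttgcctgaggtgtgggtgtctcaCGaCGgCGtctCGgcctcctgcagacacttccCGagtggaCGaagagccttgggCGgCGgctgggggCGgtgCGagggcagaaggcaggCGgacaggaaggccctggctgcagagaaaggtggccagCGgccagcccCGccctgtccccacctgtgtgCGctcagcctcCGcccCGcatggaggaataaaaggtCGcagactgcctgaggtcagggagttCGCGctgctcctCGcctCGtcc
Krt8: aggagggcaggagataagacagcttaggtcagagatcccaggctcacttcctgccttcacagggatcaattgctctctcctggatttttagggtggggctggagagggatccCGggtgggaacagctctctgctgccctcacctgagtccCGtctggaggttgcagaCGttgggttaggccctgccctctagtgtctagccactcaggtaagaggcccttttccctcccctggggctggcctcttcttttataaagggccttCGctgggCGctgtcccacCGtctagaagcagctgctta
Krt18: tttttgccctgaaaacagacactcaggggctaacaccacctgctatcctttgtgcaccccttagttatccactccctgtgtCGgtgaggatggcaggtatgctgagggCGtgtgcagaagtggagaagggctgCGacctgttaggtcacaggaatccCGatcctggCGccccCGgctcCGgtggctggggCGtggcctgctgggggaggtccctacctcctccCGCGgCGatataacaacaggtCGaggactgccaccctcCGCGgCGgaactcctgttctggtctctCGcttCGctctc
Krt10: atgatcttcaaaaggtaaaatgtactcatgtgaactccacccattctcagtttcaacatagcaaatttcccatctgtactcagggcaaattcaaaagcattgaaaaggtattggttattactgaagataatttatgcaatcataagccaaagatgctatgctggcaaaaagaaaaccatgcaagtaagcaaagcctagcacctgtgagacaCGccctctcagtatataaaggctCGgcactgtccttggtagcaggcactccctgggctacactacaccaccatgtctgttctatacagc
The Krt7 promoter held 21 CG dinucleotides and that of Krt18 held 17, more than the 11 of Krt72, the highest of the 30 promoters of keratins without a peak in the table as used here. As many as 21 occurred in 24.8% of all 32851 promoters, and as many as 17 in 31.4%. The Krt8 promoter held 6, near the median of 7 over all promoters, and that of Krt10 held 2. The median was 6 over the 7 keratin promoters with a peak and 4 over the 30 others. The GC box GGGCGG, searched on both strands, occurred at 4 places in the Krt7 promoter and at 0 in those of Krt8, Krt18 and Krt10, and 35.7% of all promoters hold it. The TATA box TATAAA, searched likewise, was matched at 1 place in Krt10 and by an overlapping match on each strand in Krt8, and 13.6% of all promoters hold it. In Krt7 and Krt18 these letters were not in the window.

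Along the chromosomes (GRCm39, positions as the table gives them) the keratin peaks followed the pair of keratin gene clusters. On chromosome 15, where RefSeq lists 26 Krt genes, the peaks ran over 629 kb from Krt7 to Krt18, and all 9 peaks of that stretch were keratin peaks. The Krt7 peak (101308903 to 101311905) stood alone at one end, with the next peak, at Krt1, 442348 bp away. Krt8 (101910575 to 101912773) and the nearer Krt18 peak were 20979 bp apart at the other end. On chromosome 11, with 27 Krt genes, 6 of 7 peaks over 963 kb were keratin peaks. RefSeq lists the noncoding gene Gm671 as the neighbour of Krt7, and a peak cannot tell the genes of a shared start apart. It also lists a Krt8 pseudogene on another chromosome, and the treatment of reads that match several places is not stated.

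**Figure D1:**
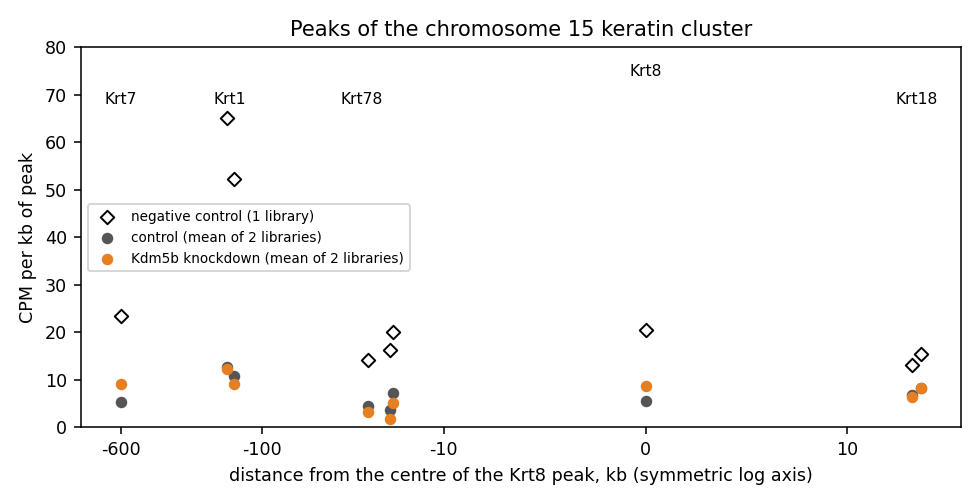
Signal per kb of peak width at the 9 keratin peaks of chromosome 15, by distance from the centre of the Krt8 peak on a symmetric log axis, with filled points for the means of the 2 control and 2 knockdown libraries and diamonds for the 1 negative control library. At Krt7 and Krt8 the knockdown mean lies above the control mean, and all 9 peaks lie below the negative control.

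Like most tested peaks, most keratin peaks lay below the negative control. In control libraries 0 of the 15 peaks exceeded the negative control by 2-fold or more, where 5.54% of all tested peaks did, and 11 were 2-fold or more below it (61.2% of all tested). In the knockdown libraries 11 were also 2-fold below it (71.5% of all tested). These counts are near the shares over all peaks. Ratios were taken on log2(CPM + 1), and with a single negative control there is no test. CPM are relative to each library's own total, and background can differ at the same CPM.

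Krt10, which encodes the type I keratin of the suprabasal epidermis, was the exception among the 15. Its peak of 2285 bp (chromosome 11, 99275853 to 99278138) held 32.1 and 37.4 CPM in control libraries 3 and 4, 37.6 and 37.9 CPM in knockdown libraries 3 and 4 and 27.5 CPM in the negative control (exact 95% Poisson interval 22.5 to 33.3, counting error only). Control library 3 lay inside that interval and the other three H3K4 libraries above it. The log2 ratio to the negative control was 0.32 in the control and 0.44 in the knockdown libraries, where the median of all tested peaks from 2 to under 5 kb was 0.63. Per kb of peak, Krt10 also had the highest control level of the family, 15.2 CPM per kb. Among the simple keratins Krt19 was next to it at 12.7 CPM per kb, while Krt18 held 8.21, Krt8 5.47 and Krt7 5.33 CPM per kb at their strongest peaks.

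Krt7 and Krt8 lay far below the negative control for peaks of their width. In the control libraries Krt7 held 0.228 and Krt8 0.268 of the negative control's CPM, with log2 ratios of -2.07 and -1.82, where only 9.05% of tested peaks from 2 to under 5 kb lay 2-fold or more below it. Krt18 (0.532) and Krt19 (0.618) were closer to it. The lowest log2 ratio of the family in the control libraries was at Krt1, the type II partner of Krt10, at -2.13.

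**Figure D2:**
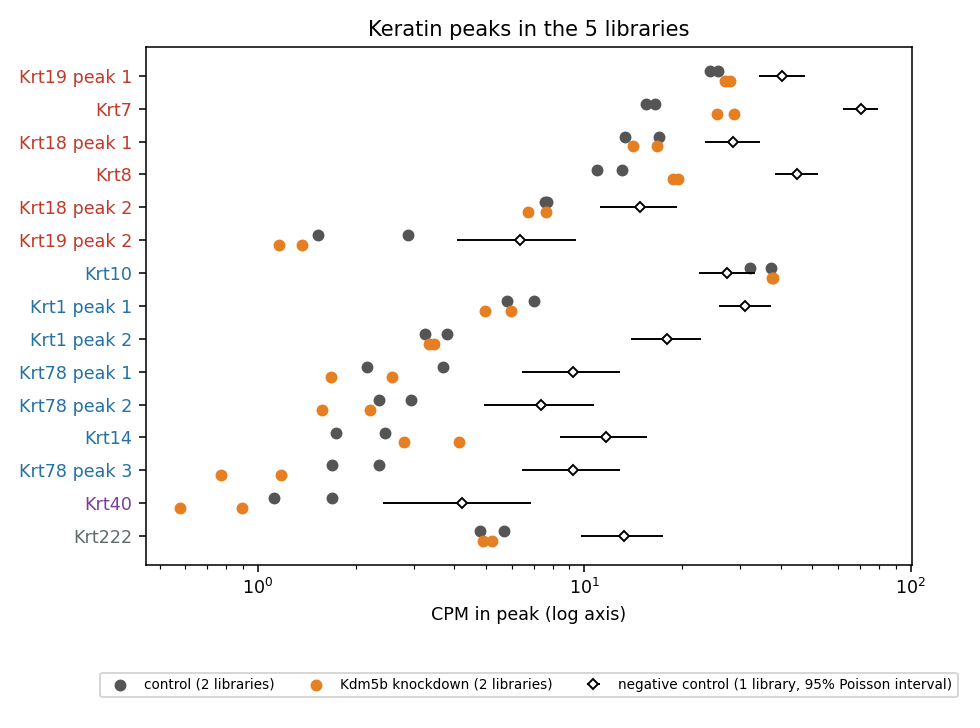
CPM on a log axis at the 15 keratin peaks, with a point for each control and knockdown library and a diamond with its exact 95% Poisson interval for the negative control; labels in red are simple epithelial, blue skin and mucosa, purple hair shaft and grey other keratins, and peaks of a gene are numbered by control level. The knockdown points of Krt7 and Krt8 lie to the right of the control points, and the Krt10 points are the only ones right of their diamond.

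The comparison of knockdown with control asks whether the mark at these genes differs when Kdm5b is targeted. Of the 15 keratin peaks 2 rose and 0 fell, Krt7 and Krt8, both type II keratins of simple epithelia (limma on log2(CPM + 1) over all tested peaks, 2-sided, Benjamini-Hochberg adjusted p below 0.05). Over all tested peaks 1.33% rose and 1.63% fell by the same rule, 773 and 947 peaks. With other scalings these became 55 and 34 (TMM), 28 and 3 (median centring), 51 and 38 (edgeR with TMM) and 16 and 3 (DESeq2).

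At Krt7 the control libraries held 15.5 and 16.5 CPM, the knockdown libraries 28.7 and 25.6 CPM, and the negative control 70.3 CPM. Both knockdown libraries stood above both control libraries, by more than the gap within either group, and all 4 stood below the negative control. The means were 16.01 ± 0.725 and 27.1 ± 2.20 CPM (SD, n = 2 each), 0.72 on the log2(CPM + 1) scale with an SE of 0.10 (limma adjusted p = 1.7e-08). This was the 7th largest rise of all 58072 tested peaks and the 2nd of the 9750 peaks from 2 to under 5 kb. Ranks on this scale favour higher peaks, because it understates change at low ones. The median level of tested peaks under 500 bp was 1.15 CPM over the 4 H3K4 libraries. The rise brought Krt7 from 0.228 to 0.386 of the negative control's CPM.

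At Krt8 the control libraries held 13.1 and 10.9 CPM, the knockdown libraries 19.45 and 18.7 CPM, and the negative control 44.9 CPM. The groups did not overlap here either, and the control libraries differed more from each other than the knockdown libraries. The means were 12.02 ± 1.52 and 19.1 ± 0.530 CPM (SD, n = 2 each), 0.63 on the same log2 scale with an SE of 0.12 (limma adjusted p = 5.9e-05), the 24th largest rise of all tested peaks. That rank has the limit given for Krt7. The share of the negative control's CPM went from 0.268 to 0.425. Both calls were lost in limma without an intensity trend (adjusted p = 0.316 for each) and with scaling on narrow background peaks (adjusted p = 0.787 for each), where the fold changes were larger, and that of Krt8 in DESeq2 as well (adjusted p = 0.0698).

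The type I partners of these keratins did not pass. The stronger Krt18 peak (chromosome 15, 101936249 to 101938099) held 17.0 and 13.4 CPM in control libraries, 14.1 and 16.7 CPM after knockdown and 28.5 CPM in the negative control. The groups overlapped fully, and the log2 fold change was 0.03 with an SE of 0.12 (limma adjusted p = 0.945). The second Krt18 peak, 1362 bp away, held 7.59 and 7.68 CPM in control libraries, against 7.66 and 6.73 CPM after knockdown (-0.08, SE 0.16).

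The main Krt19 peak (chromosome 11, 100035323 to 100037295) held 24.2 and 25.7 CPM in control libraries, 26.97 and 27.9 CPM after knockdown and 40.4 CPM in the negative control. The knockdown libraries lay above the control libraries without overlap, and the log2 fold change of 0.13 (SE 0.09) did not pass (limma adjusted p = 0.478). Both knockdown libraries lay above both controls at 5 of the 15 keratin peaks and below them at 4, against 12.1% and 35.4% of all tested peaks. This split went with width. Of the 6 keratin peaks of 1 kb or more 4 lay above and 0 below, and of the 9 narrower ones 1 lay above and 4 below. Shares over all tested peaks at like width are not given here. A second, narrow Krt19 peak went from 2.89 and 1.53 CPM to 1.36 and 1.16 CPM (-0.47, SE 0.28, limma adjusted p = 0.384).

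Within each library Krt8 was set against Krt18, the filament partner it is known for, on the log2(CPM + 1) scale. The difference Krt8 minus Krt18 was -0.35 and -0.27 in the control libraries and 0.43 and 0.15 in the knockdown libraries. In CPM Krt8 thus lay below Krt18 in both controls and above it in both knockdown libraries. The peaks differ in width, 2198 bp at Krt8 and 1850 bp at Krt18. Per kb of peak Krt8 held 8.85 and 8.51 CPM in knockdown libraries 3 and 4, and Krt18 held 7.64 and 9.03. Per kb Krt8 was thus above Krt18 in knockdown library 3 only. Krt7 minus Krt19 was -0.61 in each control library, and 0.09 and -0.12 in the knockdown libraries. Here too widths differ, 3002 bp at Krt7 and 1972 bp at Krt19. Per kb Krt7 stayed below Krt19 in every H3K4 library, with 9.56 and 8.52 against 13.7 and 14.2 CPM per kb after knockdown. The shifts of these differences, 0.60 and 0.59, had an exact permutation p = 0.333 each (2-sided), the smallest that 2 against 2 libraries allow. These are from 5 pairs of simple keratins, compared after their values were seen. Since the p-value cannot go below 0.333 here, the test cannot decide whether the partners changed unequally.

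**Figure D3:**
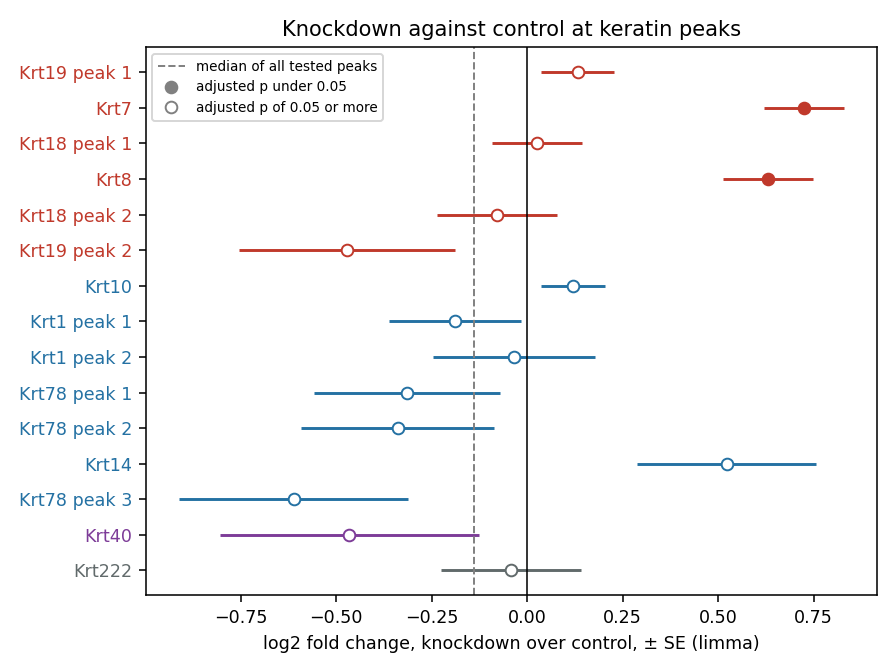
Log2 fold change of knockdown over control with its SE (limma) at the 15 keratin peaks, filled where the adjusted p is under 0.05, with a dashed line at the median of all tested peaks (-0.14). Only Krt7 (0.72) and Krt8 (0.63) are filled, and 9 of the 15 fold changes are below 0.

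Skin and hair keratins had 0 of 8 peaks called higher and 0 lower by limma, and edgeR and DESeq2 called 0 of them. An unadjusted p under 0.05 was reached by 2 of the 8, beside 16.6% of all tested peaks. Krt14, the keratin of the basal epidermis, was one of these 2, with 2.46 and 1.74 CPM in control libraries, 4.13 and 2.80 CPM after knockdown and 11.6 CPM in the negative control. Its groups did not overlap, and a log2 fold change of 0.52 (SE 0.23) rested on 46 and 33 control reads and 88 and 87 knockdown reads (limma adjusted p = 0.230). It passed with quantile normalization (adjusted p = 0.033) and with cyclic loess (0.035). The other was the weakest peak of Krt78, a type II keratin, at 2.35 and 1.68 CPM in control libraries, 1.17 and 0.773 CPM after knockdown and 9.25 CPM in the negative control (-0.61, SE 0.30, limma adjusted p = 0.279). The other Krt78 peaks had log2 fold changes of -0.31 and -0.34.

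Krt10, the strongest of these, had 0.12 as its log2 fold change, with an SE of 0.08 (limma adjusted p = 0.457), and its knockdown libraries lay just above both controls. Krt1 held 7.002 and 5.79 CPM in control libraries, against 4.98 and 5.99 CPM after knockdown at its stronger peak, with 31.2 CPM in the negative control, and the groups overlapped (-0.19, SE 0.17). Its weaker peak (101754253 to 101754529) held 3.79 and 3.26 CPM in control libraries, against 3.48 and 3.35 CPM after knockdown (-0.04, SE 0.21). Krt40, a hair keratin, had 1.12 and 1.68 CPM in control libraries, against 0.893 and 0.579 CPM after knockdown, from 18 to 32 reads each. Its log2 fold change of -0.47 had an SE of 0.34. Krt222 held 4.81 and 5.68 CPM in control libraries, against 5.21 and 4.89 CPM after knockdown, with a log2 fold change of -0.04 (SE 0.18).

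The median log2 fold change was 0.08 over the 6 simple keratin peaks and -0.25 over the 8 skin and hair peaks, beside -0.14 over all tested peaks. Both medians moved when single libraries were left out. The simple median was 0.14 without control library 3, 0.05 without control library 4, 0.15 without knockdown library 3 and 0.06 without knockdown library 4. The skin and hair median was -0.05 without control library 3, -0.26 without control library 4, -0.29 without knockdown library 3 and -0.14 without knockdown library 4. It was -0.34 with edgeR on library totals, -0.05 with quantile normalization, -0.01 with median centring and 0.11 with narrow background scaling. With the strongest peak of each gene the reported median was 0.38 over 4 simple and -0.19 over 5 skin and hair keratins. Summed over the 6 peaks, simple keratins held 80.3 and 75.8 CPM in control libraries, 98.3 and 96.8 CPM after knockdown and 205 CPM in the negative control. The skin and hair sum was 54.9 and 56.6 CPM in control libraries, against 57.0 and 54.7 CPM after knockdown, most of it from Krt10, and without Krt10 it was 22.8 and 19.3 CPM against 19.45 and 16.7 CPM. The simple sum was higher in both knockdown libraries, and Krt7 and Krt8 carried nearly all of that, since the other 4 simple peaks summed to 51.7 and 48.3 CPM in control libraries and to 50.1 and 52.5 CPM after knockdown. The skin and hair sum overlapped between groups. Peak width moved with the grouping, with a median of 1911 bp at simple and 511 bp at skin and hair keratins. Over all tested peaks the median fold change also moved with width, from -0.23 under 500 bp to 0.04 from 2 to under 5 kb. The part of width in the contrast was not tested.

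Krt7 and Krt8 were also set beside peaks like them. Of 882 tested peaks from 2 to under 5 kb that stood at least 2-fold below the negative control, 33 rose (3.74%) and 101 fell, with a median log2 fold change of -0.19. Krt7 was exceeded by 1 of these and Krt8 by 7, Krt7 among them. Krt7 and Krt8 are themselves among the 882 peaks and among the 33 that rose. The same control libraries enter the choice of the 882 peaks and the fold change, so the class is not independent of the change.

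**Figure D4:**
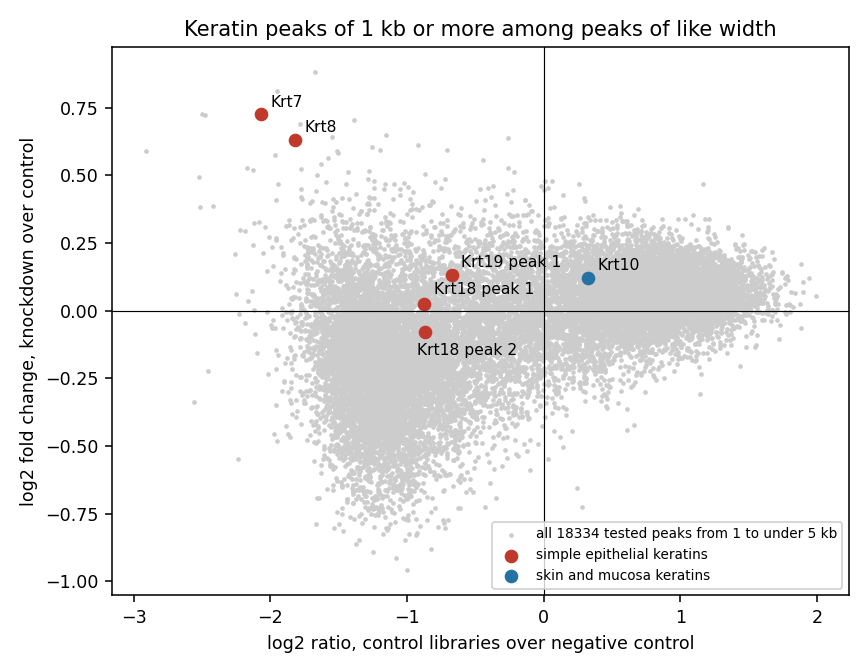
Log2 fold change of knockdown over control against the log2 ratio of the control libraries to the negative control, for all 18334 tested peaks from 1 to under 5 kb (grey) and the 6 keratin peaks of that width (red simple epithelial, blue skin and mucosa). Krt7 and Krt8 lie at the upper left, with ratios of -2.07 and -1.82 and high fold changes, while Krt18, Krt19 and Krt10 lie within the grey cloud near a fold change of 0. The control libraries enter both axes.

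Markers of mesothelium and epicardium moved in the same direction as Krt7 and Krt8. Of the 11 marker genes, 10 rose and 0 fell, with a median log2 fold change of 0.46. The marker lists were chosen with earlier results of these data known, so such counts are a description and not independent support. Over all tested peaks 1.33% rose, and the share grew with width to 4.78% from 2 to under 5 kb and 12.5% at 5 kb or more. These shares also stand beside the fibroblast count. Summed over the 11 marker genes the level was 598 and 572 CPM in control libraries, 738 and 737 CPM after knockdown and 1231 CPM in the negative control. In the control libraries 1 of the 11 mesothelial, 1 of 8 fibroblast and 0 of 6 endothelial markers stood at or above the negative control. Msln, which encodes mesothelin, rose from 30.9 ± 2.96 to 47.0 ± 1.08 CPM (SD, n = 2 each, limma adjusted p = 3.4e-09). Gpm6a, an epicardial marker gene, rose from 54.4 and 47.8 CPM to 71.6 and 69.5 CPM. Lrrn4, a mesothelial marker gene, rose from 34.2 ± 2.55 to 49.6 ± 0.501 CPM. All 11 fold changes were positive under each of the other settings, while the number called was 6 with TMM, 4 with median centring, 5 with DESeq2 and 0 without a trend or with narrow background scaling. Fibroblast markers rose at 4 of 8 genes, Col3a1, Dcn, Pdgfra and Col1a2 (sums of 432 and 408 CPM against 508 and 501 CPM). Cardiomyocyte markers had 0 of 9 higher and 3 lower (Myh6, Ryr2 and Tnni3) with a median of -0.15, which became 0.09 with median centring, 0.07 with DESeq2 and 0.31 with narrow background scaling. Without control library 4 the calls fell to 6 mesothelial, 2 fibroblast and 0 cardiomyocyte markers, without control library 3 to 1 cardiomyocyte marker, without knockdown library 3 to 2, and without knockdown library 4 to 0. Fibroblast calls were 1 with TMM or DESeq2 and 0 with median centring, and cardiomyocyte calls 0 with each of these. Cardiomyocyte calls rose to 5 lower with quantile normalization and 7 with cyclic loess, and 1.63% of all tested peaks, or 4.89% of those of 5 kb or more, fell. Of 6 endothelial markers 0 passed in limma, edgeR or DESeq2, with 0 at an unadjusted p under 0.05. All 6 had a positive fold change in the reported setting (median 0.14), beside 30.6% of all tested peaks, and in each other setting. That share is not one at like width. The endothelial peaks were 1943 to 4345 bp wide, and all tested peaks from 2 to under 5 kb had a median log2 fold change of 0.04. The part of these cell types in the keratin rises was not tested, and in bulk samples more cells of a type and more signal per cell cannot be told apart.

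The partner lists held desmosome and filament linkers, other intermediate filament genes, and epithelial regulators and adhesion genes. Of their 31 measured genes 1 was called, the filament gene Vim, near the share over all tested peaks of 1.33% higher and 1.63% lower. Desmosome and filament linker genes were measured at 10 of 15, with 0 higher and 0 lower in the reported limma fit, edgeR and DESeq2, 1 at an unadjusted p under 0.05 and a median log2 fold change of 0.02. Limma called 1 lower with quantile normalization and 2 with cyclic loess. Dsp, which encodes desmoplakin, the anchor of keratin and desmin at desmosomes, held 125 and 122 CPM in control libraries, against 126 and 129 CPM after knockdown (0.05, SE 0.05), and the linker gene Dst had -0.14 (SE 0.05, limma adjusted p = 0.102). Ppl, the periplakin gene, had -0.12 (SE 0.11), and Pkp2, the plakophilin gene of heart desmosomes, -0.04 (SE 0.04). Of the other intermediate filament genes, 8 of 10 measured, 1 rose and 0 fell. With the 5 CPM filter 2 of 7 rose and 1 fell, with quantile normalization 1 rose and 1 fell, and with cyclic loess 0 rose and 1 fell. In the reported fit Vim, the vimentin gene of mesenchymal cells, rose from 179 and 188 CPM to 213 and 209 CPM (0.20, SE 0.04, limma adjusted p = 0.0016), a call absent with TMM in limma and edgeR, cyclic loess, median centring, narrow background scaling, DESeq2, without a trend and without control library 3. Des, the desmin gene of muscle, held 87.7 and 96.3 CPM in control libraries, against 81.3 CPM in each knockdown library (-0.17, SE 0.06, limma adjusted p = 0.090). Nes, the nestin gene, had 0.16 (SE 0.05, limma adjusted p = 0.056).

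Regulators and adhesion genes of epithelia, 13 of 18 measured, had 0 called in either direction by the reported limma fit, edgeR or DESeq2, and a median log2 fold change of -0.05. An unadjusted p under 0.05 was reached by 3 of the 13, beside 16.6% of all tested peaks. Limma called 1 lower without control library 4 and 1 lower with the 5 CPM filter. The epithelial repressor gene Ovol2 had the smallest p, with 22.8 and 19.4 CPM in control libraries, against 15.3 and 17.6 CPM after knockdown (-0.34, SE 0.11, limma adjusted p = 0.054). Ovol1, its relative, had -0.41 (SE 0.16, limma adjusted p = 0.151). Cdh1, which encodes E-cadherin, held 5.29 and 6.58 CPM in control libraries, 6.58 and 5.38 CPM after knockdown and 27.2 CPM in the negative control, and its groups overlapped. Epcam, an epithelial adhesion gene, had a log2 fold change of -0.05 (SE 0.15).

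**Figure D5:**
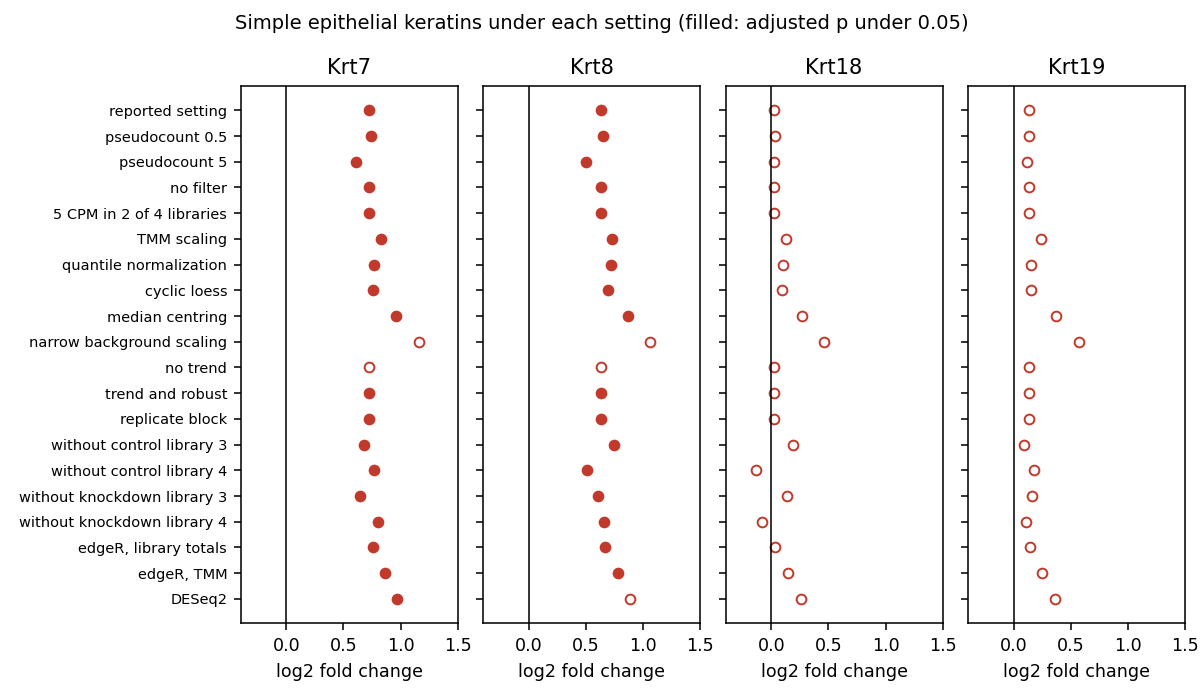
Log2 fold change of the strongest peak of Krt7, Krt8, Krt18 and Krt19 in the reported setting and 19 others, filled where the adjusted p is under 0.05. Krt7 ranges from 0.61 to 1.16 and Krt8 from 0.50 to 1.06, Krt19 stays above 0 without a call, and Krt18 lies on both sides of 0.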

How the data were processed

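H3K4 CUT&RUN libraries were made with commercial kits, per the labels' protocols, trimmed with Trim Galore and referred to GRCm39, per the submitters' processing notes. No source used here names the aligner, peak caller or gene assignment. Deposited values were CPM, scaled by the authors to the reads in peaks of each library. All values were whole multiples of 1 step per column (100% within 1e-06), so reads were recovered, and 1 read was worth 0.0322 to 0.0534 CPM in the H3K4 libraries and 0.264 CPM in the negative control. For this work 2 lines had been emptied. H3K4 column numbers (3 and 4) do not occur in the titles, and each column was mapped to its group only. All value columns were used (0 left out).

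Peaks with 1 CPM or more in 2 of 4 H3K4 libraries were tested with limma 3.58.1 (R 4.3.3) on log2(CPM + 1) with an intensity trend (the spread of a peak then comes from peaks of like height), 2-sided, adjusted over all tested peaks at 0.05. Fold changes are on that scale and understate low peaks. Alternatives used edgeR 4.0.16 and DESeq2 1.42.0 on the recovered reads, where edgeR called 634 higher and 712 lower. Marker and partner genes are given at their strongest peak. Scripts were tested on simulated data. Named were all keratin peaks, and in partner and marker lists 2 to 4 genes with the smallest p, where any are described. Cdh1 and Epcam were named for their role, and Gata4 and Pln for their ratio to the negative control, after their values were seen. Members and lists were chosen with earlier results of these data known.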

Additional observations from a re-analysis of the deposited data

How the results depend on the processing

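Both keratin calls held in 16 of 19 other settings, and 0 keratin peaks were called higher without a trend (3 at an unadjusted p under 0.05) or with narrow background scaling (3), and 1 with DESeq2. The log2 fold change of Krt7 was 0.72 without a trend and 1.16 on narrow background peaks, and that of Krt8 was 0.63 and 1.06, and 0.89 with DESeq2, none of them past the threshold. The cause was not tested. Against the reported scaling the median of all peaks shifted by 0.14 (quantile), 0.15 (cyclic loess and DESeq2), 0.24 (median centring) and 0.31 (narrow background). Leaving out single libraries, Krt7 ranged from 0.64 to 0.80 and Krt8 from 0.51 to 0.75, all called, Krt18 from -0.14 to 0.19 and Krt19 from 0.09 to 0.17, and 2 keratin peaks were called higher each time. The simple keratin median was 0.32 with median centring, 0.51 on narrow background peaks and 0.31 with DESeq2, and the skin and hair median was 0.11 on narrow background peaks. Signs changed in some settings at the uncalled Krt18, Krt1 and Krt222 peaks and at 1 Krt78 peak.

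With a limit of 3-fold in place of 2-fold, 6 of the 15 keratin peaks lay that far below the negative control. With a pseudocount of 5, 6 of the 15 were 2-fold or more below it. A filter of 5 CPM left 8 keratin peaks, and 4 of these were 2-fold or more below. Each count was the same in the control and in the knockdown libraries. The shares over all tested peaks in these settings are not given here. Over all peaks the calls higher and lower were 55 and 34 with TMM, 28 and 3 with median centring, 51 and 38 with edgeR and TMM, 16 and 3 with DESeq2, and 0 and 0 without a trend (8226 at an unadjusted p under 0.05) or on narrow background peaks (1770). Without control library 3 there were 216 higher and 185 lower, without control library 4 371 and 430, without knockdown library 3 307 and 476, and without knockdown library 4 155 and 194. With the column number as a replicate block 1578 were higher and 2275 lower, the keratin calls were the 2 reported ones, and the lists had 1 linker lower, 2 other filament genes higher and 1 lower, and 1 epithelial gene lower. Libraries of the same number deviated together with r = 0.118 across peaks, and with 2 pairs this does not show a pairing. The 3784381 reads of the negative control limit its values, and peaks below 5 CPM rest on few reads.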
